A study of Mus musculus with 2 samples.

Results

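The genes described here encode the machinery that builds ribosomes in the nucleolus. The 46 members were chosen by name and by role: 6 for RNA polymerase I and its factors, 5 nucleolar scaffold or multifunctional proteins, 4 proteins of box C/D and U3 small nucleolar ribonucleoproteins (snoRNPs), 4 of box H/ACA snoRNPs, 12 for small subunit assembly, 14 for large subunit assembly, and Cad, an enzyme gene of pyrimidine synthesis. All 46 were found among the 23961 gene symbols of the deposited tables, each on a row of its own, and all 46 reached 1 FPKM or more in both libraries. FPKM is a fragment count divided by transcript length and by the size of the library.

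RNA-seq was done on haematopoietic stem cells sorted from bone marrow, with untreated C57BL/6 mice kept in a light and dark cycle as the source. The library labelled Per2wt came from wild-type mice and the library labelled Per2def from Per2-deficient mice, with 1 library per genotype. Per2 is one of the repressor genes of the circadian clock. The Per2 allele, the sort markers, the age of the mice, the hour of collection and the number of animals behind each library are not stated in the labels. The question is which genes stand higher or lower in these cells when Per2 is deficient. With 1 library each there is no replicate check, no test and no p-value, and every difference below is between these libraries as labelled. Differences are log2(FPKM + 1) in Per2def minus the same in Per2wt, which shrinks the change of genes at low levels.

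Ribosome production starts with RNA polymerase I, which transcribes one long precursor of the 18S, 5.8S and 28S ribosomal RNAs. Box C/D snoRNPs guide 2′-O-methylation of that precursor and box H/ACA snoRNPs guide pseudouridylation, while the U3 snoRNP and a large set of assembly factors fold and cut it into the small and large subunits. Some genes of this pathway are tied to disease of blood-forming tissue, though not always through ribosome building alone. Mutations of SBDS cause Shwachman-Diamond syndrome, mutations of DKC1, NHP2 and NOP10 cause dyskeratosis congenita, and both can end in marrow failure. NPM1 is among the genes most often mutated in acute myeloid leukaemia.

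A few facts of the libraries bear on every value. Per2 itself was not lower but higher in the library labelled Per2def, at 6.16 FPKM against 1.96 FPKM, which goes against the label if the allele removed the transcript, and the allele is not named. Read totals are not in the files and absolute depth is unknown. From the most common FPKM ratio of 3232 low genes (0.805), the Per2def library was about 1.24 times as deep as the other. Among the stem and early progenitor markers, Cd34 stood at 90.5 and 83.9 FPKM in Per2wt and Per2def, Flt3 at 48.8 and 51.4, Kit at 42.7 and 43.6 and Hlf at 20.3 and 15.8, whereas Fgd5, Slamf1 and Hoxb5 were under 1 FPKM in both libraries. All 10 neutrophil lineage markers were higher in Per2def (summed level 521 against 995 FPKM), as were 8 of 11 erythroid markers (summed level 657 against 731 FPKM). The 3 lower erythroid markers were the globin genes Hba-a1 (193 against 114.5 FPKM) and Hbb-b1 (75.7 against 48.7 FPKM) and Alas2 (1.46 against 0.792 FPKM). For S phase genes, 14 of 15 were higher (569 against 622 FPKM), and for genes of G2 and mitosis 4 of 14 (192 against 186 FPKM). As a background to these counts, 62.0% of all measured genes were higher in Per2def. Median differences were 1.12 for neutrophil, 0.308 for erythroid, 0.155 for S phase and −0.072 for G2 and mitosis genes. The S phase median lay just under the upper quartile of all measured genes (0.163), and the G2 and mitosis median just under the lower (−0.065). None of these 4 lists had a member at 0 or under 1 FPKM in both libraries. The part of cell makeup and of cell cycle in the differences below was not tested, and in a bulk library fewer cells of a type and less RNA per cell cannot be told apart.

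The ribosome biogenesis genes stood at nearly the same level in both libraries. Of the 46, 29 were higher in Per2def and 17 lower, beside 62.0% of all 11121 measured genes higher and 38.0% lower. Their median difference was 0.031, beside 0.051 for all measured genes. Differences of under 0.1 in either direction were found for 26 members (56.5%), beside 42.2% of all genes. A difference of at least 1.2-fold was reached by 1 member upward (12.2% of all genes) and by 2 downward (6.45% of all genes). They are Taf1d, which was higher, and Polr1e and Imp3, which were lower. No member was 1.5-fold higher (2.61% of all genes) or lower (1.70%), and none was 2-fold higher (1.25%) or lower (0.998%). The share of higher genes depends on the scale factor: scaling by the median of ratios or by the upper quartile brought all genes to 51.0% and 50.5% higher and left 21 of the 46 members higher. The direction was the same under the deposited and both other scalings for 38 members, 21 of them higher and 17 lower.

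**Figure D1:**
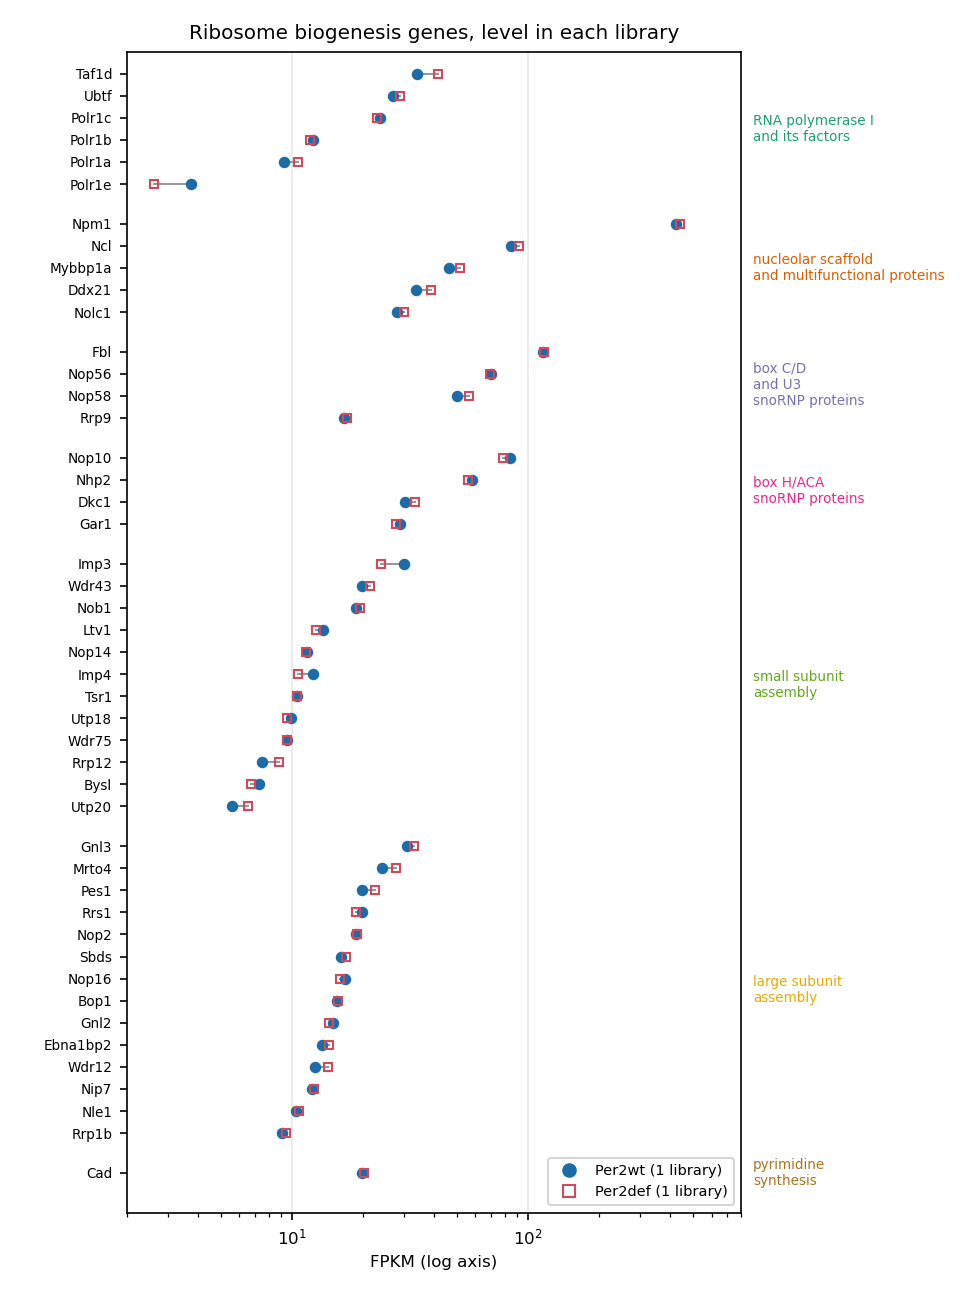
Level of each of the 46 genes in the Per2wt library (filled circles) and the Per2def library (open squares), as FPKM on a log axis, grouped by role and joined by a line. The symbols of most genes overlap, and the widest gaps are those of Polr1e, Taf1d and Imp3.

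The members covered a wide range of levels in nearly the same order in both libraries. Npm1 led at 423 and 443 FPKM (here and below Per2wt is given first and Per2def next), and Polr1e was lowest at 3.74 and 2.61 FPKM. The member medians of 18.7 and 18.8 FPKM were above 84.4% and 84.3% of the measured protein-coding genes. Together the members took 0.832% of protein-coding FPKM in Per2wt and 0.856% in Per2def, and Npm1 alone was 26.6% and 26.9% of the members' sum. The Spearman correlation of levels between the libraries was 0.994 across the 46 members and 0.985 across 9901 protein-coding genes, where genes are not independent replicates. The first 5 places were held by Npm1, Fbl, Ncl, Nop10 and Nop56 in both libraries.

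**Figure D2:**
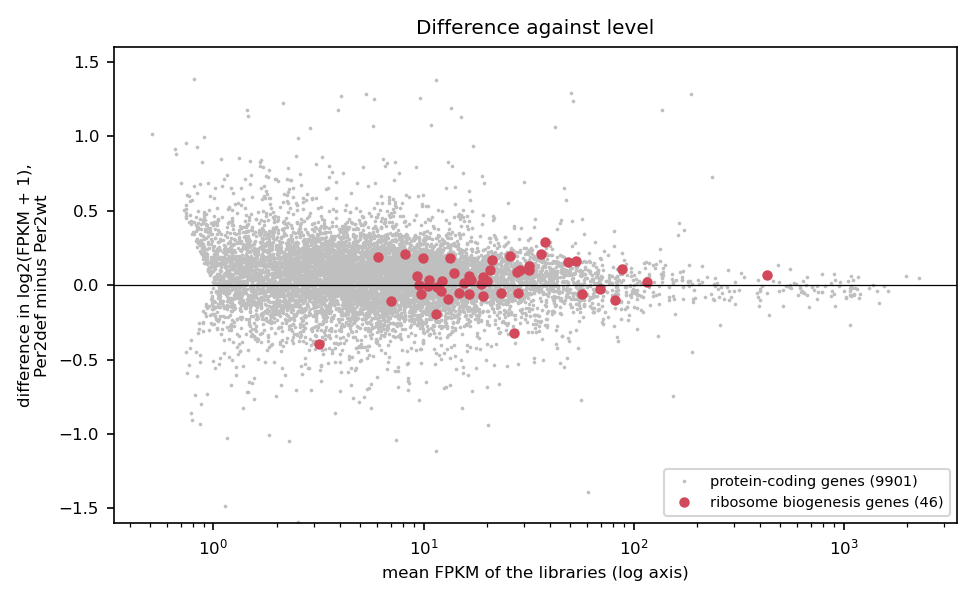
Difference between the libraries (Per2def minus Per2wt, log2 of FPKM + 1) against the mean FPKM of the libraries on a log axis, for 9901 protein-coding genes (grey) and the 46 ribosome biogenesis genes (red). The red points lie in the body of the grey cloud, and 10 protein-coding genes fall beyond the vertical limits of 1.6.

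Against genes of like level, 45 of the 46 differences lay within the middle 95% of protein-coding genes. Between 20 and 100 FPKM that range ran from −0.32 to 0.31, and the 19 members there ran from −0.32 (Imp3, just inside) to 0.29. Between 5 and 20 FPKM it ran from −0.33 to 0.41, and the 24 members there from −0.20 to 0.21. The exception was Polr1e at −0.39, where the range for 1 to 5 FPKM ran from −0.39 to 0.50, so that it lay just beyond the lower edge.

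A sequence feature found in a part of these genes is the E-box CACGTG, the letters that MYC with MAX and the clock activators CLOCK and BMAL1 bind. It reads the same on both strands. RefSeq promoter windows (GRCm38.p6, 250 bases before to 50 after the start) were matched for 39 of the 46 members by symbol. Npm1, Fbl, Rrp12, Bop1, Rrs1, Gnl2 and Sbds had no entry. The E-box was found in 10 of the 39 (25.6%, 95% Wilson interval 14.6 to 41.1%). The share was 15.4% (14 of 91) for other ribosome biogenesis genes with a window, 12.3% for 7936 measured protein-coding genes and 8.09% for all 27025 genes in the table. The 10 were 6 small subunit genes (Imp4, Ltv1, Tsr1, Utp18, Utp20 and Wdr43), 3 large subunit genes (Nle1, Nop2 and Pes1) and Mybbp1a.

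In 3 of the 10 the E-box lay before the start, and these stretches are shown because they are the members' upstream matches. They read 5′ to 3′ on the gene's strand, with the E-box in capitals. The Nop2 stretch is chr6:125131783-125131868 on the plus strand, with the E-box starting 60 bases before the start. The Imp4 stretch is chr1:34439668-34439753 on the plus strand, at 121 bases before it, and the Utp18 stretch is chr11:93885767-93885852 on the minus strand, at 20 bases before it.
Nop2: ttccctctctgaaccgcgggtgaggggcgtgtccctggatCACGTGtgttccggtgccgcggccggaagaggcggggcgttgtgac
Imp4: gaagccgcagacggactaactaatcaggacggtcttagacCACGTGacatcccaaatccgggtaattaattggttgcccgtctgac
Utp18: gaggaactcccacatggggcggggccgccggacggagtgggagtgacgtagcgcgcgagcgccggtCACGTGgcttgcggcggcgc

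In the other 7 the E-box lay in the 50 bases from the start on. That is 17.9% of the 39 members, beside 2.05% of measured protein-coding genes and 5.49% of the 91 other ribosome biogenesis genes. Before the start the share was 7.69% for the members, 11.0% for the 91 other genes and 10.3% for measured protein-coding genes. The short sites below show the E-box in capitals, which begins at base 3 of the window's transcribed part in Pes1 (chr11:3963975-3963991, plus), 18 in Wdr43 (chr17:71616223-71616246, plus), 24 in Nle1 (chr11:82908358-82908381, minus), 25 in Tsr1 (chr11:74898095-74898118, plus), 29 in Ltv1 (chr10:13193095-13193118, minus), 38 in Utp20 (chr10:88826765-88826786, minus) and 41 in Mybbp1a (chr11:72441358-72441376, plus). The start used here is that of the RefSeq window. It lies 320 bases from the gene's start in GENCODE M21 in Wdr43, 31 in Ltv1 and 28 in Mybbp1a. In Nle1 it lies 16 bases away, in Utp20 10, in Tsr1 9 and in Pes1 0. The bases next to the E-box differ from gene to gene. These sites and the split at the start were chosen after the matches were seen.
Pes1: ggCACGTGcgggaggaa
Wdr43: ccgggcgaaCACGTGgctgccgcg
Nle1: gttctcctcCACGTGgggacgcag
Tsr1: cttggtgcaCACGTGgactgcaga
Ltv1: ctgtggaccCACGTGtggagctgc
Utp20: cactaactaCACGTGaggaaaa
Mybbp1a: ttctgagccCACGTGtttg

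**Figure D3:**
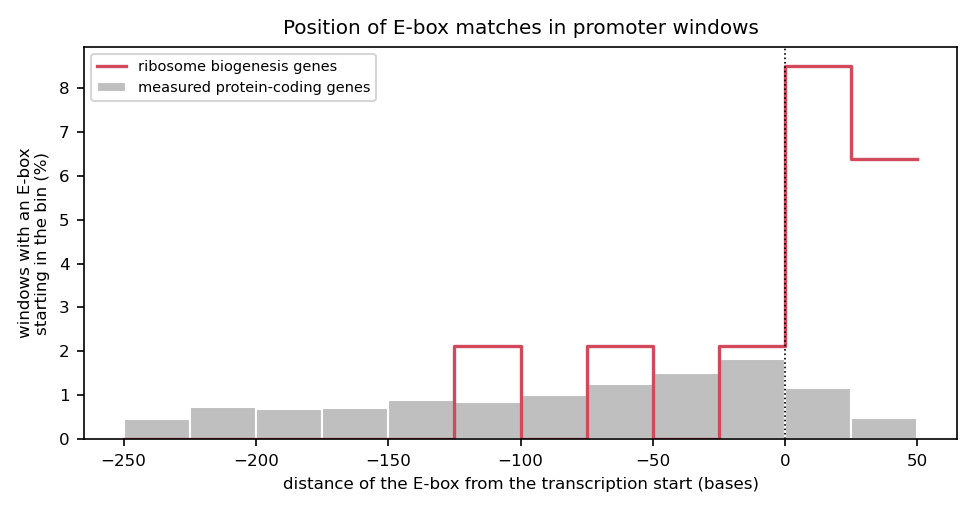
Share of promoter windows with an E-box starting in each bin of 25 bases, in percent, against its distance from the transcription start, for the 47 windows of the ribosome biogenesis genes (red line) and for the windows of measured protein-coding genes (grey bars). The red line is highest in both bins after the start, with 4 and 3 windows, where the grey bars decline.

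Members with and without an E-box differed little between the libraries. With it, 6 of 10 were higher in Per2def, with a median difference of 0.023 and a range from −0.20 (Imp4) to 0.19 (Utp20). Without it, 18 of 29 were higher, with a median of 0.032 and a range from −0.39 to 0.29. Over measured protein-coding genes the medians were 0.058 with an E-box and 0.047 without. A match is a description of the letters in the window and not a measured binding site.

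Genes of RNA polymerase I went both ways. Polr1a, the largest subunit, stood at 9.28 and 10.7 FPKM (difference 0.18), and Polr1b, the second largest, at 12.3 and 11.9 FPKM (−0.040). Both form the catalytic centre of the enzyme. Polr1c, a subunit shared with RNA polymerase III, stood at 23.7 and 22.9 FPKM (−0.050). Polr1e, which encodes a subunit that works in initiation and elongation, stood at 3.74 and 2.61 FPKM (−0.39), the widest difference of all members and also the lowest level, where counting error is largest. Polr1e lies on chromosome 4 (45018583 to 45036565, GRCm38, ENSMUSG00000028318.14), with no exon of another gene over it in GENCODE M21.

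Of the factors that bring the polymerase to ribosomal DNA, the members Ubtf and Taf1d were higher. Ubtf, the upstream binding factor that coats active ribosomal genes, stood at 26.8 and 28.7 FPKM (0.091). Taf1d, a part of the promoter selectivity factor SL1, stood at 34.0 and 41.8 FPKM (0.29), the highest difference of the members. The other SL1 subunits, which are not members, went both ways. The difference was −0.18 for Taf1a, −0.043 for Taf1b, −0.035 for Tbp and 0.12 for Taf1c. Taf1d (chromosome 9, 15306214 to 15316991, GRCm38, ENSMUSG00000031939.16) holds 8 snoRNA genes within its borders. It overlaps exons of 2 annotated genes on the opposite strand and of 2 on its own strand. It also shares a coding stretch with 1 other annotated gene. Reads of an overlap on its own strand cannot be told apart by strand. Because the strand setting of the quantification is not given, those of the opposite strand cannot be told apart either. With either other scaling Taf1d fell under 1.2-fold, at 0.24. The median of the 6 genes was 0.026, with 3 higher and 3 lower, and it was −0.026 and −0.029 with the other scalings. The product of the enzyme could not be read: the row of the ribosomal RNA precursor, Rn45s, was marked by Cufflinks as holding too much data and carried no estimate in either library.

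The 5 nucleolar scaffold and multifunctional genes were all higher in Per2def, also under both other scalings. Of all measured genes 62.0% were higher as deposited, and 51.0% and 50.5% with the other scalings. Npm1 encodes nucleophosmin, the abundant chaperone of the outer nucleolus, and stood at 423 and 443 FPKM (0.066). Ncl, nucleolin, which acts in RNA polymerase I transcription and early processing, stood at 84.6 and 91.4 FPKM (0.11). Nolc1, a chaperone of snoRNPs, stood at 27.8 and 29.9 FPKM (0.10). Mybbp1a, a nucleolar Myb-binding protein also described as a co-repressor at the Per2 promoter, stood at 46.3 and 51.7 FPKM (0.16), and the RNA helicase gene Ddx21 at 33.5 and 38.8 FPKM (0.21). All but Ddx21 lay between the quartiles of all measured genes (−0.065 and 0.16). The median of the 5 was 0.11 (range 0.066 to 0.21), the highest of the role groups of 4 or more, and 0.057 and 0.055 with the other scalings. None of the 5 reached 1.2-fold. Npm1 shares a coding stretch of at least 100 bases at 95% identity or more with 5 other annotated genes, so its value may include reads of copies.

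**Figure D4:**
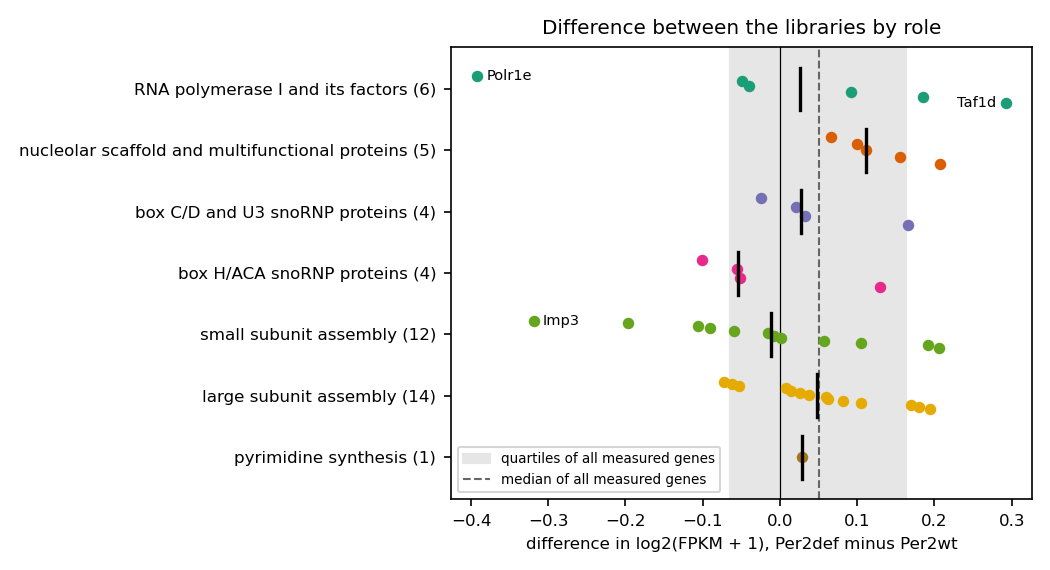
Difference between the libraries for each of the 46 genes by role (Per2def minus Per2wt, log2 of FPKM + 1), with a black bar at each group's median, the span between the quartiles of all measured genes in grey and their median as a dashed line. Polr1e, Imp3 and Taf1d lie farthest out, and the 5 nucleolar scaffold genes all lie above 0.

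The core proteins of box C/D snoRNPs were level apart from Nop58. Fbl, fibrillarin, the methyltransferase of the complex, stood at 115.6 and 117.3 FPKM (0.021), and its partner Nop56 at 70.1 and 68.9 FPKM (−0.024). Nop58, the other part of the scaffold, stood at 49.9 and 56.1 FPKM (0.17). Rrp9, the protein specific to the U3 snoRNP, stood at 16.7 and 17.1 FPKM (0.032). Nop56 was therefore the one lower gene of the 4, and Fbl and Rrp9 joined it under both other scalings (−0.033 and −0.036 for Fbl, −0.019 and −0.022 for Rrp9). The remaining core protein of the complex, Nhp2l1, is not a member and stood at 42.6 and 41.0 FPKM (−0.053). With it, the 4 core proteins spanned 2.71-fold in level in Per2wt and 2.86-fold in Per2def, with Fbl highest and Nhp2l1 lowest in each.

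Of the box H/ACA proteins 3 of 4 were lower in Per2def, beside 38.0% of all measured genes. Nop10, the smallest of them, stood at 84.1 and 78.4 FPKM (−0.10), Nhp2 at 57.8 and 55.6 FPKM (−0.056) and Gar1 at 28.7 and 27.6 FPKM (−0.052). Dkc1, the pseudouridine synthase of the complex and also a part of telomerase, went the other way, at 30.2 and 33.1 FPKM (0.13). Dkc1 has a coding length of 1530 bases, whereas the others have 195 (Nop10), 462 (Nhp2) and 696 (Gar1). The median of the 4 was −0.054, and no gene of the group reached 1.2-fold. Levels within the complex spanned 2.93-fold in Per2wt and 2.84-fold in Per2def. Naf1 and Shq1, which assemble this snoRNP and are not members, were lower too. Naf1 stood at 6.09 and 5.29 FPKM (−0.17) and Shq1 at 5.41 and 4.73 FPKM (−0.16). Their coding lengths of 1794 and 1710 bases are above that of Dkc1. Whether coding length bears on the differences of these genes was not tested.

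Small subunit genes also went both ways. Imp3 and Imp4 encode proteins that join the U3 snoRNA to the precursor, and both were lower. Imp3 stood at 30.0 and 23.9 FPKM (−0.32) and Imp4 at 12.3 and 10.6 FPKM (−0.20), and their sum went from 42.3 to 34.4 FPKM. Imp3 lies on chromosome 9 (56937475 to 56938398, GRCm38, ENSMUSG00000032288.9) and shares a coding stretch with 1 other annotated gene that has no row in the files. It passed 1.2-fold under all scalings. Imp4 lies on chromosome 1 (34439851 to 34449356, GRCm38), and the E-box shown above lies upstream of these borders.

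Other members of the small subunit processome lay on both sides of 0. Utp20, a very long scaffold protein, stood at 5.61 and 6.55 FPKM (0.19), and Wdr43 at 19.9 and 21.4 FPKM (0.11). Wdr75 was level at 9.53 and 9.54 FPKM (0.00090), as was Nop14 at 11.6 and 11.5 FPKM (−0.015). Utp18 stood at 9.94 and 9.50 FPKM (−0.059). Wdr43, Wdr75 and Utp18 carry WD repeats and act in early steps, before the precursor is cut. Rrp12, which helps to export both subunits, stood at 7.50 and 8.81 FPKM (0.21).

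Factors of late small subunit maturation lay on both sides of 0 as well. Bysl stood at 7.29 and 6.70 FPKM (−0.11) and Ltv1 at 13.5 and 12.6 FPKM (−0.091). Both ride on the precursor of the small subunit towards the cytoplasm. Tsr1, a GTPase-like factor of late precursors, stood at 10.6 and 10.5 FPKM (−0.0081), and Nob1, the nuclease that makes the end of 18S ribosomal RNA, at 18.7 and 19.5 FPKM (0.057). In all, 5 of 12 small subunit genes were higher and 7 lower, beside 62.0% and 38.0% of all measured genes. The median of the 12 was −0.011, and it moved to −0.062 and −0.064 with the other scalings.

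Of the 14 large subunit genes, 11 were higher in Per2def (78.6%), beside 62.0% of all measured genes. With either other scaling 7 were higher and 7 lower, so the direction of small differences in this group depends on the scale. The PeBoW complex, which is needed to process the 28S and 5.8S precursors, had Pes1 at 19.9 and 22.5 FPKM (0.17), Wdr12 at 12.5 and 14.3 FPKM (0.18) and Bop1 at 15.5 and 15.7 FPKM (0.015). Pes1 and Wdr12 thus differed alike and Bop1 was level, and lower under both other scalings (−0.037 and −0.039). Levels within the complex spanned 1.6-fold in both libraries. Mrto4, a stand-in for the stalk protein P0 during assembly, stood at 24.0 and 27.6 FPKM (0.19), the highest difference of the group.

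Among the GTPases, Gnl3, nucleostemin, stood at 30.7 and 33.1 FPKM (0.11) and Gnl2 at 15.0 and 14.4 FPKM (−0.053). Nucleostemin is named for its high level in stem cells, and it was the most abundant of the 14 large subunit members in both libraries. Large subunit genes outside the members stood higher, among them Gltscr2 at 80.6 and 83.1 FPKM and Rrp1 at 49.2 and 51.6 FPKM. Of the genes tied to marrow function, Sbds, which helps to release the factor eIF6 from the new large subunit, stood at 16.2 and 16.9 FPKM (0.059), and Nle1, needed for stem cell maintenance in mouse marrow, at 10.4 and 10.7 FPKM (0.038). Both were close to the median of all genes.

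The rest of the group differed by under 0.1. Nop2, a methyltransferase of 28S ribosomal RNA, stood at 18.7 and 18.9 FPKM (0.0085), Nip7 at 12.2 and 12.4 FPKM (0.025), Rrp1b at 9.05 and 9.49 FPKM (0.062) and Ebna1bp2 at 13.5 and 14.3 FPKM (0.082). Rrs1, which helps to bring in the 5S ribonucleoprotein, stood at 19.8 and 18.7 FPKM (−0.073), and Nop16 at 16.8 and 16.1 FPKM (−0.062). With Gnl2 these were the 3 lower genes of the 14. The group median was 0.049, close to that of all measured genes, and −0.0024 and −0.0047 with the other scalings. Cad, which encodes the enzyme of the first steps of pyrimidine synthesis and belongs to no ribosome complex, stood at 19.9 and 20.3 FPKM (0.029).

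Other genes of the pathway gave nearly the same picture. A list of 115 further ribosome biogenesis genes, picked by role, had 70 higher and 45 lower in Per2def (60.9% higher, beside 62.0% of all measured genes) and a median difference of 0.044. With either other scaling 53 were higher and 62 lower. Of its small subunit genes 30 of 42 were higher (71.4%, median 0.060), where 5 of 12 members were (41.7%, −0.011). Of its large subunit genes 24 of 42 were higher (57.1%, median 0.034), where 11 of 14 members were (78.6%, 0.049). For RNA polymerase I 6 of 10 were higher, for box C/D 4 of 7 and for box H/ACA 0 of 2. At least 1.2-fold differences on the log2(FPKM + 1) scale were seen in 2 of the 115 upward and 3 downward, beside 12.2% and 6.45% of all measured genes. With either other scaling the counts were 1 upward and 6 downward. Of all 11121 measured genes, 1015 and 948 passed with the median of ratios, and 1001 and 962 with the upper quartile. The upper end held Znrd1, a small subunit of RNA polymerase I, at 9.12 and 12.9 FPKM (0.46), and Nol11, Pwp2 and Rcl1 of small subunit processing at 0.30, 0.25 and 0.23. The lower end held the exosome genes Exosc3, at 24.1 and 17.9 FPKM (−0.41), and Exosc1 (−0.27), the large subunit factor Rsl24d1, at 41.5 and 34.2 FPKM (−0.27), and Znhit3 of snoRNP assembly (−0.26). Exosc3 and Znhit3 overlap exons of a gene on the opposite strand. Znrd1 and Polr1e, both subunits of the same enzyme, thus lay at opposite ends, while Polr1d was level at 44.0 and 43.8 FPKM (−0.0087) and the initiation factor Rrn3 stood at 7.38 and 8.77 FPKM (0.22).

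Differences moved with the length of the coding sequence. Of 18 members with 2000 coding bases or more, 14 were higher in Per2def (77.8%, median 0.077), and of 13 members under 1000 bases, 7 were higher (53.8%, median 0.021). The 15 members between these lengths were close to the short ones, with 8 higher (53.3%, median 0.032). Over all protein-coding genes the share rose in each class, from 53.8% (median 0.018) under 1000 bases to 62.2% (0.050) and to 72.2% (0.077) at 2000 or more. With protein-coding genes in 10 equal bins of coding length, the median went from −0.028 in the shortest to 0.088 in the longest. The Spearman correlation of difference with coding length was 0.36 across the 46 members, 0.26 across 108 other ribosome biogenesis genes and 0.15 across 9901 protein-coding genes, all from the same pair of libraries. Set relative to genes of like coding length, the member median was −0.018 in place of 0.031, the small subunit median −0.089, the box H/ACA median −0.050 and the nucleolar scaffold median 0.052. What makes differences follow length in these libraries was not tested.

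**Figure D5:**
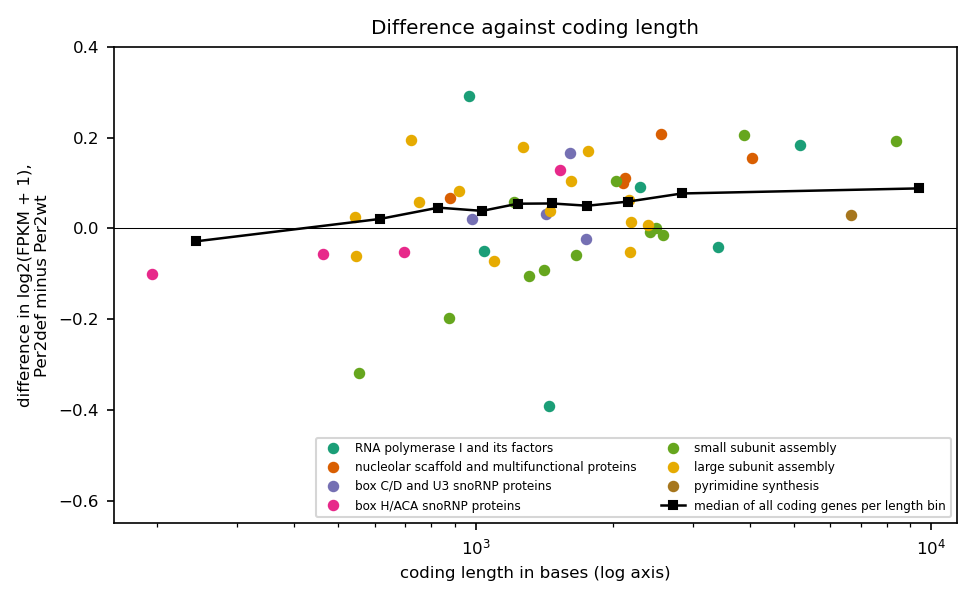
Difference between the libraries (Per2def minus Per2wt, log2 of FPKM + 1) against coding length in bases on a log axis for the 46 genes, coloured by role, with black squares for the median of all protein-coding genes in each of 10 equal bins of coding length. The black line climbs from −0.028 to 0.088, and the members scatter around it.

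A set of 8 members also carries snoRNA genes within its borders, so that one transcript yields both a protein of the pathway and guide RNAs for it. These are Taf1d with 8, Nop56 with 5, Nop58 with 4, Gnl3, Ncl and Wdr43 with 3 each, Tsr1 with 2 and Dkc1 with 1, or 29 in all by GENCODE M21. Of the 8 hosts, 6 were higher in Per2def (beside 62.0% of all measured genes), with a median difference of 0.11 (range −0.024 to 0.29), and Nop56 and Tsr1 were the lower ones. Of the 38 other members 23 were higher, with a median of 0.023. This split was chosen after the values were seen. Of the 46 members, 14 overlap an exon of another gene on the opposite strand that has a row in the files, and 9 share a coding stretch with another annotated gene. The 26 with neither had a median difference of 0.017, with 15 higher.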

How the data were processed

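Both libraries are described above; groups follow the genotype labels. Per the labels' protocols, poly(A) RNA was made into libraries with a kit that marks strand. The authors deposited gene-level FPKM, as the column header says; the submitters' processing notes name Cufflinks, CASAVA 1.8, TopHat, Bowtie2 and the builds GRCm38 and mm10. Which annotation, filters or strand setting they used is not given in the sources used here. FPKM are relative to each library's total, and Cufflinks shares multiply mapping reads among copies.

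Of 24487 rows per file, 9 without an estimate and 27 with date-like symbols were left out, and rows sharing a symbol were summed. A gene counted as measured if either library reached 1 FPKM (11121 genes), and 1 FPKM was added before taking log2. Coordinates, coding lengths and overlaps came from GENCODE M21 (GRCm38), which placed all 46 members; promoters came from RefSeq (GRCm38.p6). Coding stretches were compared with BLAST 2.17.0, and other steps used Python 3.11.15 with pandas 2.3.3, NumPy 2.4.6 and SciPy 1.17.1. No test can be made with 1 library per genotype. Every member is named; of the other pathway genes the 4 highest and 4 lowest differences at 5 FPKM or more are, while Naf1, Shq1, Polr1d, Rrn3, Nhp2l1, the SL1 subunits, Gltscr2 and Rrp1 were chosen after their values were seen. The members and lists were chosen with earlier results of these data known. A planned description of the proteins was not made, as no protein sequences were used here. The B, T and megakaryocyte marker lists gave summed levels of 6.94 against 6.51, 5.87 against 9.68 and 35.8 against 34.1 FPKM. Under 1 FPKM in both libraries were 5 of 6 B, 3 of 6 T and 1 of 6 megakaryocyte markers, so the B and T sums rest on few genes. The procedures were tested on simulated data.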

Additional observations from a re-analysis of the deposited data

How the results depend on the processing

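The median differences are small enough for a change of scale to turn their sign. With the median of ratios and with the upper quartile, the member median became −0.021 and −0.024, that of RNA polymerase I genes −0.026 and −0.029, of box C/D genes −0.026 and −0.029, of large subunit genes −0.0024 and −0.0047 and of the other pathway genes −0.0084 and −0.011. The nucleolar scaffold median was 0.057 and 0.055, that of box H/ACA genes −0.11 and −0.11, of small subunit genes −0.062 and −0.064 and of all genes 0.0040 and 0.0018, and 0 members were at least 1.2-fold higher. Relative to genes of like coding length, an alternative added after seeing the data, the medians were −0.018 for the members, −0.028 for RNA polymerase I, 0.052 for nucleolar scaffold, −0.020 for box C/D, −0.089 for small subunit, 0.0035 for large subunit and −0.014 for other pathway genes. With the mean they were 0.014 for RNA polymerase I, 0.049 for box C/D, −0.020 for box H/ACA, −0.019 for small subunit and 0.016 for other pathway genes. A floor of 5 FPKM leaves out Polr1e, which gave an RNA polymerase I median of 0.091 and 1 member at least 1.2-fold lower. At thresholds of 1.5-fold and 2-fold 0 members were called in either direction. Without members that overlap or share a stretch with another gene, also added after seeing the data, the median was 0.017. Counting bases before the start only, 7.69% of members held an E-box. The cause of these shifts was not tested except where the alternative removes genes. The other 50 values, among them those with a pseudocount of 0.1 FPKM, no floor and the highest row per symbol, kept their direction within 1.5 times. Each member has a row of its own and reached 1 FPKM in both libraries. Dropping the floor or taking the highest row could therefore not change any member value, and those values say nothing on stability. No paired analysis was possible because each genotype has 1 library. Depth is unknown, so no counting interval can be set, and values of under about 5 FPKM carry the most counting error.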
